A study of Mus musculus with 8 samples.

Results

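Of the single-cell profiles sorted for CD45, a surface protein of leukocytes, 52 met a rule on transcripts of blood vessel endothelium. Further genes bore this out for 45 of them. All 52 were picked on raw unique molecular identifiers (UMIs), each of which stands for 1 captured RNA molecule. A barcode of library C1 or C2 entered if it held at least 500 UMIs from at least 300 genes with at most 10% of them mitochondrial, and at least 3 UMIs summed over Cdh5, Kdr, Emcn and Plvap. It was left out with any UMI of the epithelial gene Epcam, any UMI of the CD3 chains of T cells (Cd3d, Cd3e, Cd3g), or more than 4 UMIs of the macrophage complement genes C1qa, C1qb and C1qc. Of the 10683 kept barcodes of both libraries, 37 of 5616 met the rule in C1 (0.659%, exact Clopper-Pearson 95% interval 0.464 to 0.907%) and 15 of 5067 met it in C2 (0.296%, 0.166 to 0.488%). Because the same counts chose the barcodes, the levels below describe them and carry no test.

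The mice belonged to an SS and a control genotype, with 4 animals of each at around 12 weeks of age, and the labels do not spell out SS. Their submandibular glands, a pair of major salivary glands, were digested with collagenase type II, whereas the lymph nodes that drain the glands were only triturated, and cells were then stained for CD45.2 and sorted. The labels list 8 samples, 4 for gene expression and 4 for T cell receptors, each from its own pairing of a genotype with a tissue. The sources used here do not say how the mice of a group were combined. The expression data came as 4 libraries named C1 to C4 that no label ties to a genotype or a tissue, so none was assigned: every comparison between C1 and C2 is between those libraries, not between conditions. There were no replicates, and every interval covers counting error only. The library protocol in the labels is that of BD Rhapsody, while the series' design names 10x.

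Endothelial cells line the inside of blood and lymph vessels and are not leukocytes, so a sort for CD45 is meant to leave them behind. Their junctions rest on VE-cadherin, encoded by Cdh5, their growth on the VEGF receptors Kdr and Flt1, and their permeability on the diaphragm protein Plvap, which spans the windows of capillaries in glands. Capillaries, arteries, veins and lymphatics differ in their genes, and the endothelium of an inflamed tissue can take up antigen presentation genes and adhesion molecules that let leukocytes enter.

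The label held for most of the barcodes but not for all. A barcode was called endothelial-marked if it carried a UMI of at least 3 of 24 pan-endothelial genes, none of which the rule used, and of at most 3 of 12 leukocyte genes. This definition was added after values were seen. It held for 35 of the 37 barcodes in C1 and 10 of the 15 in C2, 45 in all. The other 7 went against the label. One in C1 had no leukocyte gene and 173 UMIs of Dcn, 10 of Col1a1 and 32 of Col3a1, which encode matrix proteins of fibroblasts. Another in C1 carried all 12 leukocyte genes, 461 UMIs of Cd74 and 13 of Cd209a. The 5 in C2 also carried all 12 leukocyte genes, with 30 to 66 UMIs of Siglech, a lectin known from plasmacytoid dendritic cells, and 0 UMIs of Emcn and Plvap. They entered through 3 to 5 UMIs of Cdh5 and Kdr alone, and 1 of them had 12 pan-endothelial genes beside its leukocyte genes. Since they were deep, at 11389 to 16101 UMIs, they held 76.3% of the UMIs of all barcodes that met the rule in C2, against 15.8% for the unmarked barcodes in C1.

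**Figure D1:**
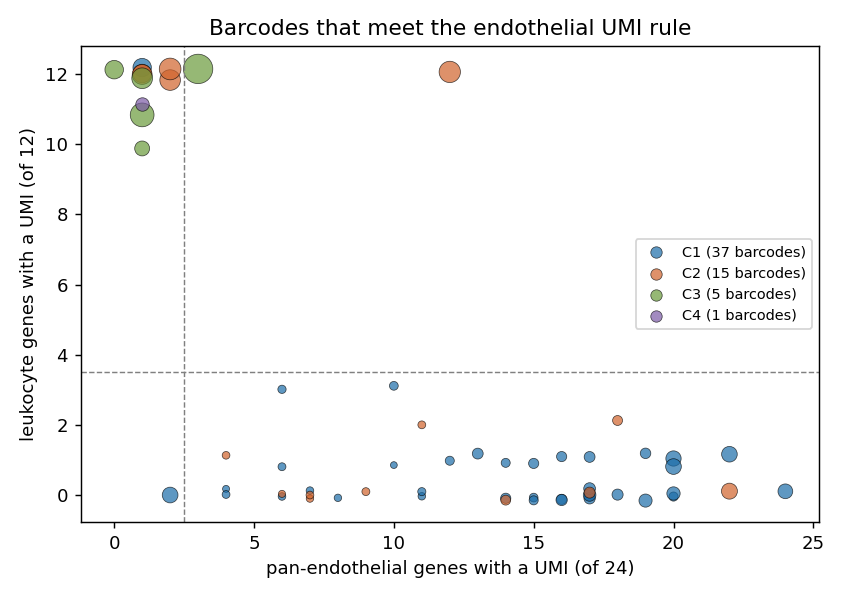
Number of pan-endothelial genes (of 24) against number of leukocyte genes (of 12) with a UMI in each barcode that met the rule, by library, with point size growing with total UMIs, a small vertical jitter, and dashed lines at the limits of the endothelial-marked set. The 35 barcodes of C1 and 10 of C2 at the lower right carry at most 3 leukocyte genes, and the 5 barcodes of C3 and 1 of C4 all lie with 10 to 12 of them.

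Levels are given for the 45 endothelial-marked barcodes unless stated, as CPM, the UMIs of a gene or list per 1000000 UMIs of that set in a library. They held 102067 UMIs in C1 and 22042 in C2, with a median per barcode of 2624 (516 to 7861) and 1092.5 (670 to 8205). The kept barcodes of each library had medians of 6224.5 and 4939 UMIs, so the endothelial-marked ones were shallow. In C2 a single barcode of 8205 UMIs held more than any other, and it carried none of the Plvap UMIs. Without it, Plvap in C2 was at 7444 CPM, Emcn at 2385 CPM, Kdr at 1445 CPM, Gpihbp1 at 1373 CPM, Rgcc at 3686 CPM and Fabp4 at 8239 CPM. For Plvap, Emcn and Fabp4 this turned the order of the libraries given below. The order also turned for Eng (1156 CPM in C2), Cxcl12 (1590 CPM), Thbd (578 CPM), Ly6c1 (6360 CPM), Sox17 (289 CPM) and Tm4sf1 (1879 CPM). Among lists, it turned for caveolae genes (11925 CPM), and further lists are given at the end. Not every gene named below was read without this barcode. The free RNA of each library was read from barcodes with at least 50 and fewer than 200 UMIs. By the summed level of 23 salivary epithelium genes, free RNA could account for 4.46% of the UMIs in C1 and 11.4% in C2. These values pool the barcodes of a library. Per barcode, salivary genes made up 0.450 to 7.64% of UMIs in C1 and 0.792 to 25.6% in C2. In free RNA they made up 41.8% and 32.4%. The C2 barcodes of 670 and 1118 UMIs had 21.2% and 25.6%, so free RNA could account for far more of these than the pooled value.

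The rule's own genes, as description, were spread over most barcodes. Plvap stood at 5438 CPM (4995 to 5909) in C1 and 4673 CPM (3814 to 5667) in C2. Its UMIs per barcode ran from 0 over a median of 15 to 55 in C1, and from 0 over 6 to 38 in C2. Emcn, a sialomucin of capillaries and veins, stood at 1764 and 1588 CPM. Kdr stood at 1528 and 907 CPM and Cdh5 at 901 and 635 CPM. A UMI of each of the 4 genes was present in 24 of 35 barcodes in C1 but in 2 of 10 in C2, where the barcodes were shallower. On the mm10 assembly these genes lie at chr8:71497753-71511806 (Plvap), chr3:137341062-137431069 (Emcn), chr5:75932827-75979072 (Kdr) and chr8:104101613-104144504 (Cdh5), and the RefSeq table lists each as protein-coding. At the threshold, 4 barcodes in C1 and 4 in C2 had a sum of exactly 3 UMIs, and 5 of these 8 were among the unmarked ones. Just outside, 1 barcode in C1 and 3 in C2 had a sum of 2. Another 19 barcodes in C1 and 8 in C2 reached 3 but failed a gate, 16 of the 19 by their C1q UMIs.

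Other genes of endothelial identity are given as a description too, since the endothelial-marked barcodes were defined by carrying at least 3 of the 24 pan-endothelial genes. The 24 pan-endothelial genes together stood at 18341 CPM (17519 to 19191) in C1 and 12658 CPM (11216 to 14233) in C2, against 47.5 and 41.5 CPM in free RNA and 180 and 151 CPM in T barcodes. Over all 52 barcodes they stood at 15496 CPM in C1 and 3275 CPM in C2. Pecam1, the adhesion molecule CD31, had a UMI in 31 of 35 barcodes in C1 and 9 of 10 in C2. Its level was 2018 CPM in C1 and 1361 CPM in C2. Egfl7, a secreted protein of the vessel wall, stood at 2185 and 1452 CPM, and Ptprb, a phosphatase that acts on the angiopoietin receptor, at 1470 and 1361 CPM. Tie1, an orphan receptor of the same pathway, stood at 627 and 408 CPM. The transcription factor genes Sox17 (343 and 454 CPM), Fli1 (314 and 272 CPM) and Epas1 (647 and 771 CPM) were detected in both libraries. Erg, an ETS factor that maintains endothelial identity, had 25 UMIs in 18 barcodes of C1 and 0 in C2, where 0 allows up to 136 CPM. Cldn5, a tight junction claudin, was nearly missing: 2 UMIs in C1, and 6 in C2 that all lay in 1 barcode. Tm4sf1 (1969 and 2178 CPM), which is in no list, Podxl (941 and 1361 CPM) of the leukocyte adhesion list and Cav1 (1048 and 1225 CPM) of the caveolae list were among the 20 genes with the highest level over all other kept barcodes by the rule for named genes. Tm4sf1 stood at 2.28 CPM in the other kept barcodes of C1 and 1.02 in those of C2.

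The sequences upstream of 3 of these genes are shown because ETS factors, which include Erg and Fli1, are known to act through sites with a GGAA core. RefSeq windows on GRCm38.p6 were matched for 14 of 28 genes (the pan-endothelial list and the 4 rule genes), giving 18 windows, and the 250 bases before each transcript start were searched on both strands. CAGGAAG was present in 6 of the 18 windows (33.3%) against 10.8% of all 32851 windows of the same length, and CCGGAAG in 0 against 6.91%. The motifs share the letters GGAAG but cannot both match at the same place. A match describes letters only, and some genes have several windows. In the sequences below, capitals mark CAGGAAG or, on the other strand, CTTCCTG. They come from chr2:26580833-26581082 (Egfl7, plus strand), chr3:137340828-137341077 (Emcn, plus strand) and chr9:37401722-37401971 (Robo4, plus strand), a guidance receptor gene of vessels with 16 UMIs in C1 and 6 in C2.
Egfl7: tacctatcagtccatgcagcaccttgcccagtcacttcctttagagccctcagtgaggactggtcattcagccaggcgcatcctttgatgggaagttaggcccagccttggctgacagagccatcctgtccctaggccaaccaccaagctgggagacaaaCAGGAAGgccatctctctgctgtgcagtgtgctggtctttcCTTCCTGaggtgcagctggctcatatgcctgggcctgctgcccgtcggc
Emcn: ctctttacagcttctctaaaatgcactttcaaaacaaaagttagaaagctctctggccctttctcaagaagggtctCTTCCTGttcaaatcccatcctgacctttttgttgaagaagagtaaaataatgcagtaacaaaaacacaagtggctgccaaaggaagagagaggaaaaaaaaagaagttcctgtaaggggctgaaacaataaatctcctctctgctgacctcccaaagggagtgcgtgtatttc
Robo4: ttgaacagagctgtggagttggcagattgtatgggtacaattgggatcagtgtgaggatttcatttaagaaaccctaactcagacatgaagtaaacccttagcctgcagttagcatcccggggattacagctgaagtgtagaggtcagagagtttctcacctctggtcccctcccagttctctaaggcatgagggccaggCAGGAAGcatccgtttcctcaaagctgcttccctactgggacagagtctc
Egfl7 holds a match on each strand, Emcn 1 on the other strand, and Robo4 1 on the strand shown.

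By vessel type, most barcodes carried capillary genes and few carried others. The rule let barcodes in by Plvap, a gene of capillaries, and Emcn, a gene of capillaries and veins, beside Cdh5 and Kdr. The shares by vessel type are therefore partly set by the rule. Of the capillary markers Rgcc, Gpihbp1, Cd36, Car4 and Btnl9, at least 1 had a UMI in 42 of 45 barcodes (93.3%, 81.7 to 98.6%) and at least 3 in 27. At least 3 were found in 25 of 35 barcodes in C1 but in 2 of 10 in C2, where the barcodes were shallower. Gpihbp1, which carries lipoprotein lipase across the capillary wall, stood at 1489 CPM in C1 and 862 CPM in C2, and was at 0.828 and 0.487 CPM in free RNA. Rgcc, a cell cycle regulator, stood at 1999 and 2314 CPM. It had a UMI in 28 of 35 barcodes in C1 and 4 of 10 in C2, where 1 barcode held 27 of the 51 UMIs. The fatty acid binding protein gene Fabp4 stood at 6819 CPM (6322 to 7345) in C1 and 5716 CPM (4762 to 6806) in C2. It was present in 34 of 35 and 10 of 10 barcodes, with medians of 13 and 11 UMIs. Car4, a carbonic anhydrase on the luminal face, was at 676 and 272 CPM.

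Arterial markers (Gja4, Gja5, Sema3g, Hey1 and Bmx) had a UMI in 9 of 45 barcodes (20.0%, 9.58 to 34.6%), 6 of them with at least 2 markers. Gja4, the gap junction protein connexin 37, was found in 4 barcodes of C1 and 3 of C2, with 6 UMIs in each library. In the 9 barcodes the chemokine gene Cxcl12 was at 1870 CPM and Plvap at 3160 CPM, against 1096 and 6015 CPM in the other 36. Plvap is a gene of the rule that let all 45 barcodes in, and its median per barcode was 10 UMIs in both sets. The sets had median depths of 2624 and 1845.5 UMIs, and the difference was not tested. In C2 the barcode of 8205 UMIs carried 4 UMIs of Gja4, 2 of Sema3g, 6 of Cldn5, 0 of Plvap and 25 UMIs of Rgs5, a gene of pericytes. Those 25 were the only Rgs5 UMIs among the 45 barcodes.

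Venous markers (Ackr1, Selp, Sele, Vwf and Nr2f2) had a UMI in 5 of 35 barcodes in C1 and 0 of 10 in C2, which allows up to 30% there. All 13 UMIs of Vwf, the von Willebrand factor gene, lay in 1 barcode of C1 that had 0 Fabp4 UMIs. Ackr1, the chemokine receptor of venules, was at 0 in both libraries. Of the lymphatic markers, Prox1, Lyve1, Pdpn and Mmrn1 were at 0, and only the VEGF-C receptor gene Flt4 was seen, with 1 or more UMIs in 8 barcodes. Glycam1, Chst4, Madcam1 and Fut7, which mark the high endothelial venules of lymph nodes, had 0 UMIs in all 45 barcodes, which allows a share of up to 6.67%. At these depths a gene at a low level can be missed, and cells low in the rule's genes were not let in.

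**Figure D2:**
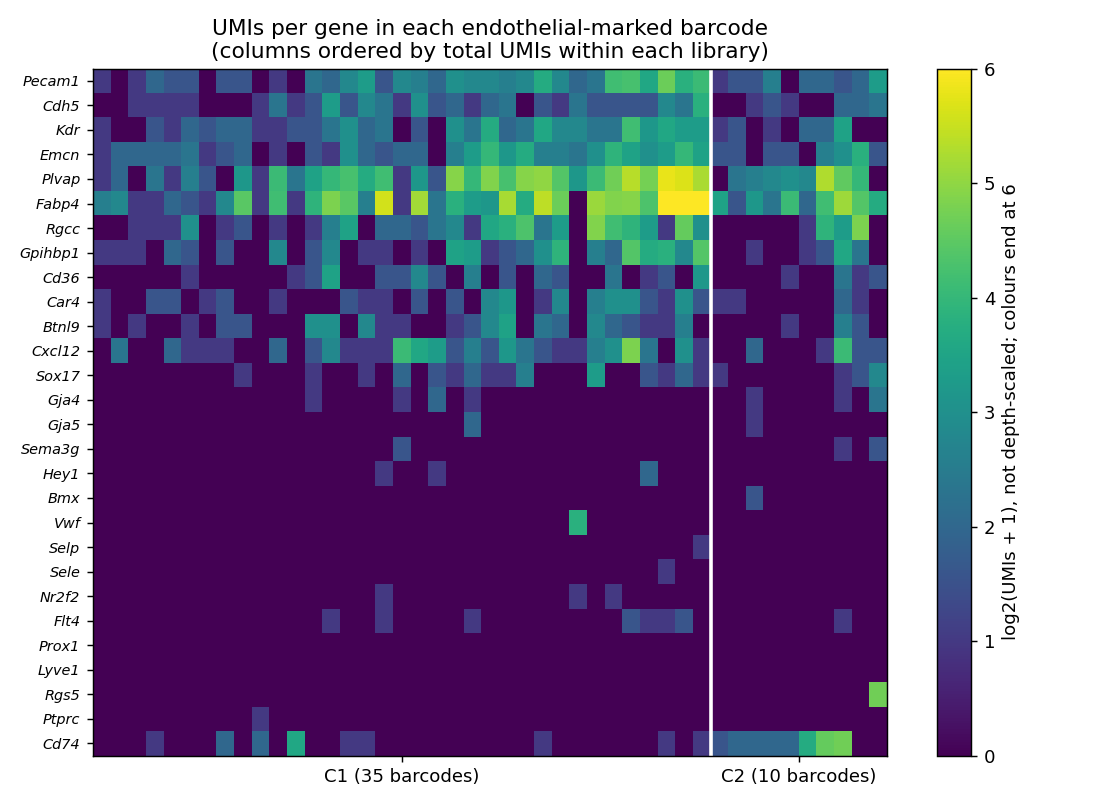
UMIs of each gene (rows) in each endothelial-marked barcode (columns, ordered by depth within C1 and C2), coloured as log2(UMIs + 1) and not scaled for depth. Plvap and Fabp4 run through nearly all columns, Gja4 is in 7 columns, Vwf in 1, Prox1 and Lyve1 in none, and Cd74 in 9 columns of C1 and 8 of C2.

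Receptors of the main vessel pathways were read in both libraries. VEGF and angiopoietin receptors summed to 7299 CPM in C1 and 4854 CPM in C2. Flt1, a VEGF receptor that also acts as a decoy, stood at 2048 CPM in C1 and 1089 CPM in C2, the co-receptor gene Nrp1 at 970 and 590 CPM, and Tek, the angiopoietin receptor, at 323 and 227 CPM. In the BMP and TGF-beta list, the co-receptor gene Eng was at 1107 and 862 CPM and its partner Acvrl1 at 353 and 454 CPM. Id3 and Id1, direct targets of BMP signalling, were at 1950 and 862 CPM and at 607 and 363 CPM. Notch genes were sparse, at 784 CPM in C1 and 771 CPM in C2 over 13 genes, led by the Notch target gene Hes1 with 17 UMIs, all in C1, and by Notch1 and Notch4 with 15 and 14 UMIs in both libraries. Without the deepest barcode of C2 the list was at 361 CPM there. Of the genes of sprouting tip cells, Esm1 was sparse, with 9 UMIs in C1 and 1 in C2.

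Genes of the vessel wall were also read. The 14 basement membrane genes summed to 18233 CPM in C1 and 9527 CPM in C2. Igfbp7, a secreted binding protein laid down around vessels, stood at 10924 CPM (10292 to 11585) in C1 and 5580 CPM (4638 to 6658) in C2. Its counts per barcode ran from 0 over a median of 21 to 159 in C1 and from 1 over 4 to 44 in C2, so the libraries overlapped. Without the deepest barcode of C2, Igfbp7 was at 8456 CPM there and the list at 12720 CPM, ratios of C1 over C2 of 1.29 and 1.43. Col4a1 and Col4a2, the collagen IV chains of the basement membrane, were at 1548 and 862 CPM and at 1097 and 318 CPM. Genes of caveolae, the membrane pits that carry cargo across the wall, summed to 10160 and 8665 CPM, with Cavin2 at 1421 and 681 CPM. Among haemostasis and vasomotor genes, Ramp2, a partner of the adrenomedullin receptor, was at 1039 and 408 CPM, the thrombin receptor gene Thbd at 392 and 363 CPM, and the endothelial nitric oxide synthase gene Nos3 had 8 and 2 UMIs. Fibroblast genes were at 0 in C1 and 90.7 CPM in C2 (2 UMIs).

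**Figure D3:**
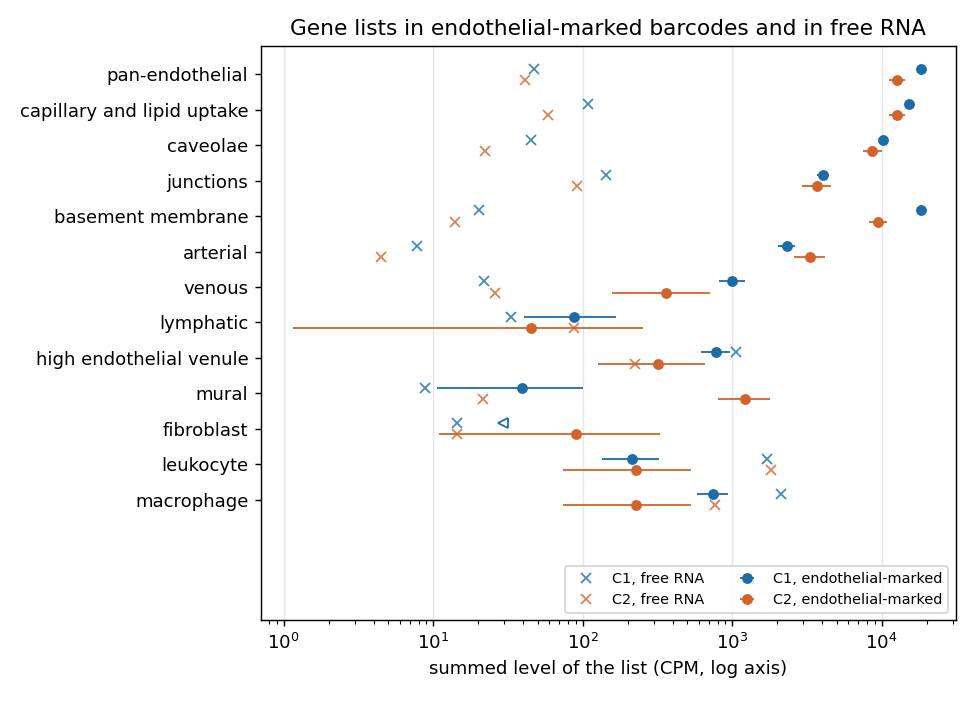
Summed level of gene lists (CPM, log axis) in the endothelial-marked barcodes of C1 and C2 (points, with exact Poisson 95% intervals) and in the free RNA of the same library (crosses), with an open triangle where 0 UMIs allow up to 3. Pan-endothelial genes lie at 18341 and 12658 CPM against under 50 CPM in free RNA, whereas leukocyte and macrophage genes lie below their free RNA. The barcodes were chosen for at least 3 pan-endothelial genes, at most 3 leukocyte genes and at most 4 C1q UMIs, so these rows restate the choice.

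Leukocyte genes were low in the endothelial-marked barcodes by definition, since these carry at most 3 of 12 such genes, Ptprc among them. Ptprc, which encodes CD45, had 1 UMI in 1 of 35 barcodes in C1 (2.86%, 0.0723 to 14.9%) and 0 in the 10 of C2, where 0 allows up to 30%. Over all barcodes that met the rule it had a UMI in 2 of 37 in C1 (5.41%, 0.661 to 18.2%) and 5 of 15 in C2 (33.3%, 11.8 to 61.6%). In T barcodes Ptprc had a UMI in 95.5% and 98.3%, at median depths of 5889 and 4934 UMIs. The 12 leukocyte genes summed to 216 and 227 CPM against 1721 and 1827 CPM in free RNA. Of macrophage genes, Csf1r and Cd68 were at 0 in both libraries and the list summed to 745 and 227 CPM, most of it Apoe with 64 of 76 UMIs in C1 and 5 of 5 in C2, below the 2136 and 773 CPM of free RNA. Salivary epithelium genes summed to 18635 CPM in C1 and 37066 CPM in C2, against 417663 and 324067 CPM in free RNA. Their part in the results was not tested.

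Between the libraries, genes were called at a ratio of at least 2 in CPM among those with at least 30 UMIs. Over all 52 barcodes, 302 of 1111 genes were higher in C1 (27.2%) and 202 were higher in C2 (18.2%). Over the 45 endothelial-marked barcodes, 122 of 602 were higher in C1 (20.3%) and 26 were higher in C2 (4.32%). The minimum was summed over 102067 UMIs in C1 and 22042 in C2, so genes high in C1 passed it more easily. The median log2 ratio of C1 over C2 across those 602 genes was 0.38 and not 0, so a ratio of a single list is read beside this shift. In macrophage barcodes of the same libraries 6.99% of genes were higher in C1 and 4.14% higher in C2, and in T barcodes 6.46% and 6.39%. Those shares rest on 11041 and 10951 genes and on many more UMIs. Counting error weighs less there, so they are not like for like. Transcripts that count with ribosomal RNA (Gm42418, AY036118 and Lars2) made up 6.63% of UMIs in C1 and 19.7% in C2, and with them left out of the totals 82 genes were higher in C1 and 38 in C2. Without the deepest barcode of C2, 93 and 39 were. These settings overlap, since 37.5% of that barcode's UMIs were such transcripts, 3004 of them Gm42418. In C1 the barcode with the Vwf UMIs had the highest share, at 44.0%.

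MHC class II genes, which present antigen to CD4 T cells and are mostly made by professional antigen presenting cells, were higher in the endothelial-marked barcodes of C2. The 7 genes summed to 607 CPM (466 to 779) in C1 and 5444 CPM (4514 to 6510) in C2, a ratio of 8.96 (6.54 to 12.4) for C2 over C1. Cd74, the invariant chain that escorts class II molecules, stood at 225 CPM in C1 and 3357 CPM in C2. H2-Aa was at 137 and 635 CPM, H2-Ab1 at 88.2 and 544 CPM and H2-Eb1 at 118 and 681 CPM. These 3 genes lie close together at chr17:34263227-34316674, and each encodes a chain of a class II molecule. Cd74 was the only class II gene with 30 UMIs. It had 23 UMIs in C1 and 74 in C2, so it passed that minimum through C2, and its call adds no support.

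By barcode, Cd74 had a UMI in 9 of 35 in C1 (25.7%, 12.5 to 43.3%) and 8 of 10 in C2 (80.0%, 44.4 to 97.5%). T barcodes, which should lack it, had a Cd74 UMI in 36.7% in C1 and 23.3% in C2, so the share in C1 was not above this background at a lower depth and the share in C2 was. Thinned to 1000 UMIs, the expected shares were 15.9% of 29 barcodes in C1 and 71.4% of 7 in C2, with 6 and 3 barcodes too shallow. At least 5 class II UMIs were found in 2 barcodes of C1 and 6 of C2. The class II share of a barcode's UMIs ran from 0 over a median of 0 to 2.04% in C1, and from 0 over 0.605% to 1.70% in C2, so the ranges overlapped. A single barcode of C1 held 54.8% of that library's class II UMIs. It had 34 class II UMIs, 7 leukocyte and 8 macrophage UMIs. The set was chosen for at most 3 leukocyte genes and at most 4 C1q UMIs, so low counts of such genes partly restate the choice. The 3 highest of C2, with 19 to 41 class II UMIs, had 0 to 2 leukocyte UMIs, 0 or 1 macrophage UMIs and no Ptprc UMI. Of these 3, the one with 19 class II UMIs had 25.6% of its UMIs in salivary genes, and the other two had 1.66% and 1.02%.

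The direction differed from that of the free RNA, where class II genes stood at 6613 CPM in C1 and 2279 CPM in C2, and of T barcodes, at 559 and 227 CPM. Macrophage barcodes held 93010 and 110430 CPM, and epithelial barcodes, chosen on Epcam, 3099 and 4897 CPM, both higher in C2. Salivary genes were 1.99 times as high in the endothelial-marked barcodes of C2 as in those of C1, and their part in the class II difference was not tested. With free RNA subtracted, the endothelial-marked barcodes were at 330.1 CPM in C1 and 5853 CPM in C2, a ratio of 17.7. The ratio was 14.3 without the deepest barcode of C2 and 14.4 without the barcode of each library with the most class II UMIs. Over all 52 barcodes it was 2.93, with most class II UMIs in the unmarked ones.

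**Figure D4:**
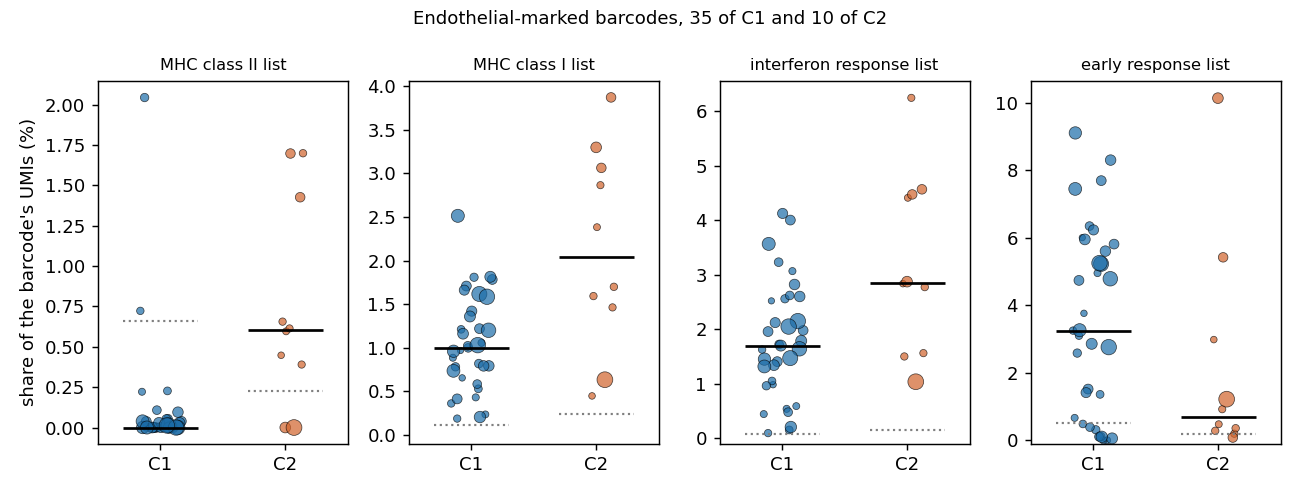
Share of each endothelial-marked barcode's UMIs (%) in 4 gene lists, by library, with point size growing with depth, solid bars at the medians and dotted bars at the level of the list in free RNA. Class II shares have a median of 0 in C1 and 0.605% in C2, class I of 0.999% and 2.04%, interferon response of 1.70% and 2.85%, and early response of 3.25% and 0.699%, with overlapping ranges throughout.

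MHC class I genes, which most cells carry, and interferon response genes were also higher in C2, by less. Class I genes summed to 11963 CPM (11301 to 12653) in C1 and 19554 CPM (17751 to 21490) in C2, 1.63 (1.46 to 1.83) times as high in C2, or 2.29 times without the deepest barcode of C2. H2-D1 was at 3135 and 4900 CPM, H2-K1 at 2391 and 3539 CPM and B2m, the light chain, at 2851 and 3992 CPM. Of 13 class I genes with at least 30 UMIs, 5 were called higher in C2 and 0 higher in C1, against 4.32% and 20.3% of all genes. These were H2-Q6, H2-Q7, H2-T22, Tap2 and Tapbp, of which H2-Q6 and H2-Q7 are near-identical copies that can share reads. Macrophage barcodes were also higher in C2, at 13734 against 7827 CPM, as was free RNA at 2368 against 1166 CPM, so the direction was shared by those barcodes.

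Interferon response genes summed to 19086 CPM in C1 and 26268 CPM in C2, a ratio of 1.38 (1.25 to 1.51) for C2 over C1, against 1.87 without the deepest barcode of C2. Over all 52 barcodes the direction turned, at 17302 and 16752 CPM. Macrophage barcodes held 3619 CPM of the list in C1 against 8410 CPM in C2, and free RNA 709 against 1501 CPM, so both were higher in C2 as well. Most of this sum came from Ly6c1 (5310 and 4990 CPM), Ly6e (3762 and 4809 CPM) and Ly6a (3498 and 4854 CPM), surface proteins of the Ly6 family. Of 12 genes with at least 30 UMIs, 4 were called higher in C2 (Isg15, Bst2, Gbp2 and Gbp7) and 0 higher in C1, against 4.32% and 20.3% of all genes. Bst2, which tethers budding viruses, was at 617 and 1543 CPM. The guanylate-binding proteins, chosen after values were seen, are known for their induction by interferon gamma. The 7 listed Gbp genes summed to 666 CPM (517 to 845) in C1 and 3312 CPM (2596 to 4164) in C2, 4.97 (3.52 to 7.02) times as high in C2, with a UMI in 25 of 35 and in 10 of 10 barcodes. Gbp7 was at 127 and 817 CPM, Gbp3 at 78.4 and 590 CPM and Gbp4 at 118 and 544 CPM. In macrophage barcodes the same 3 genes also had C1 over C2 ratios below 1, of 0.180, 0.324 and 0.223. The related gene Iigp1 went the other way, at 441 CPM in C1 and 227 CPM in C2.

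Chemokines and adhesion genes were read at low counts. Cxcl9 and Cxcl10, interferon-induced ligands of the chemokine receptor CXCR3, had 0 UMIs in C1 and 6 UMIs each in C2, in 3 and 2 barcodes. With C1 set to the floor of 3 counts, the ratio of C2 over C1 is 9.26. It takes the 6 UMIs of C2 as exact and so is no lower bound. Cxcl9 stood at 1.82 CPM in the free RNA of C1 and 77.8 in that of C2. Cxcl12, a chemokine made without stimulation, was at 1332 and 1089 CPM. Icam1 had 16 UMIs in C1 and 0 in C2, Cxcl1 22 UMIs in 3 barcodes of C1 and 0 in C2, and the selectin genes Sele and Selp 1 UMI each in C1.

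Several heat shock genes had higher levels in C1, though the sum of their list differed little. Early response genes, which encode transcription factors made within minutes of a stimulus, did not stand out from all genes in their count of calls. The early response list summed to 41052 CPM (39818 to 42314) in C1 and 27538 CPM (25391 to 29819) in C2, a ratio of 1.49. The ratio was 1.12 without the deepest barcode of C2 and 1.28 without the transcripts that count with ribosomal RNA. Of its 17 genes with 30 UMIs, 3 (Jun, Egr1 and Klf6) were called higher in C1, a share below the 20.3% of all genes. Jun, a subunit of the AP-1 factor, stood at 5751 and 2631 CPM, Egr1 at 4615 and 1406 CPM and Fos at 6241 and 4446 CPM. In C2, 1 barcode held 54.7% of the list's UMIs. Per barcode the list made up 0 to 9.11% of UMIs in C1 and 0.0815 to 10.1% in C2, so both libraries held barcodes with nearly none and barcodes with a large share of their UMIs in it. The same list was higher in C1 in macrophage barcodes (ratio 2.09), T barcodes (2.42) and free RNA (2.75). Of 7 heat shock genes with 30 UMIs, 5 were called higher in C1, against 20.3% of all genes: Hspa1a, Hspa1b, Hsp90aa1, Dnajb1 and Dnaja1. Hsp90aa1 had 40 UMIs in C1 and 3 in C2, and Dnaja1 had 49 and 5. Like Hspa1b, they passed the minimum through C1, so the count of calls adds no support. Without the deepest barcode of C2 the ratio of Dnaja1 fell to 1.66, below the limit of 2, and that of Hsp90aa1 rose to 5.42. A single barcode of C1 had 28 UMIs of Hspa1a. Hspa1b had 47 UMIs in 9 barcodes of C1 and 0 in C2, and can share reads with its near-identical copy Hspa1a. With C2 set to the floor of 3 counts its ratio is 3.38, which is no lower bound. The heat shock list's sum differed little, at 5604 and 4582 CPM (ratio 1.22, 0.988 to 1.53), since Hsp90ab1 was at 1626 and 2178 CPM. That ratio was 1.27 without the deepest barcode of C2 and 1.05 without the transcripts that count with ribosomal RNA.

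Other genes named by the size of their ratio were higher in C1. Hspb1, a small heat shock protein outside that list, stood at 3625 CPM (3265 to 4014) in C1 and 635 CPM (347 to 1066) in C2, a ratio of 5.71 (3.36 to 10.5). It had a UMI in 28 of 35 and 6 of 10 barcodes, with 0 to 91 and 0 to 6 UMIs, and the ratio was 3.58 without the deepest barcode of C2. Sox18, a transcription factor gene of vessel development, stood at 1509 and 363 CPM, a ratio of 4.16 (2.06 to 9.80). Without the deepest barcode of C2 this ratio was 2.98. Igfbp3, a binding protein for insulin-like growth factors, was at 1283 and 454 CPM and the matricellular gene Ccn1 at 1019 and 272 CPM, all 6 UMIs of C2 in its deepest barcode. In the other direction, the adhesion receptor gene Adgrf5 was at 931 CPM in C1 and 1588 CPM in C2, and the taurine transporter gene Slc6a6 at 460 and 1180 CPM. Without the deepest barcode of C2, Adgrf5 was at 1156 CPM there, a ratio of C2 over C1 of 1.24. Over the 19 pan-endothelial genes with 30 UMIs, 4 were called higher in C1 (Esam, Ramp2, Cd34 and Sox18) and 1 higher in C2 (Ecscr), shares close to the 20.3% and 4.32% of all genes, with a median log2 ratio of 0.57 beside the 0.38 of all genes.

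**Figure D5:**
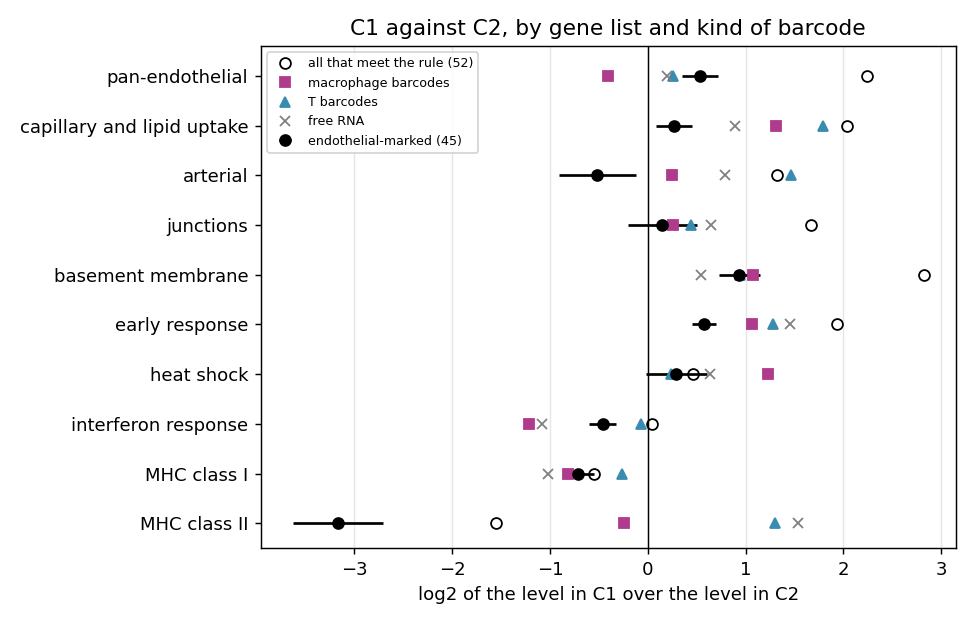
Log2 of the level in C1 over the level in C2 for 10 gene lists, in the 45 endothelial-marked barcodes (filled circles, with exact 95% intervals for counting error), all 52 barcodes (open circles), macrophage barcodes, T barcodes and free RNA. For MHC class II the endothelial-marked ratio lies furthest to the left, at 0.112 on the linear scale, while T barcodes (2.46) and free RNA (2.90) lie to the right of 0; the open circles include the unmarked barcodes, which hold 76.3% of the UMIs in C2.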

How the data were processed

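Gene expression was measured in single cells sorted for CD45. The deposited matrices hold whole-number UMI counts per gene and barcode, not normalized. Per the file headers, the writer was Cell Ranger 4. The submitters' processing notes name mm10, STAR 2.7.10a and Cell Ranger 6.1.2. Each lists 32285 genes. C1 and C2 held 48439860 and 44798843 UMIs. T cell receptor libraries were not used here.

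Members and gene lists were chosen with earlier results of these data known, and the 33 lists (403 genes, 2 symbols not found) name known markers and pathways. UMIs were summed over barcodes and given as CPM with exact Poisson 95% intervals, shares with Clopper-Pearson intervals, ratios with exact conditional intervals. A count of 0 allows up to 3 counts. No test was run, because each library is single and tied to no group. T barcodes held at least 3 UMIs of Cd3d, Cd3e and Cd3g, no endothelial, Epcam or C1q UMI, and macrophage barcodes at least 10 C1q UMIs with none of the others. Genes were named by rule: up to 4 highest per list with at least 10 UMIs, the largest C1 to C2 ratio per list with at least 30 UMIs, the 20 with the largest ratio to other kept barcodes and the 10 largest C1 to C2 ratios each way with at least 50 UMIs, a count of 0 set to 3, with receptor V, D and J, salivary and mt- genes left out of the last parts. This rule was run on all 52 and, as an addition, on the 45 endothelial-marked barcodes. Any other gene named was chosen after its values were seen.

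Doublets were not removed: Scrublet in scanpy 1.11.5 called 218 barcodes (3.88%) in C1, 1 of them a member that was endothelial-marked. It called 4 (0.0789%) in C2, where it did not work. Pairs of libraries shared 31 to 85 barcode sequences, none of them a member's. The ratio calls and intervals were run on simulated Poisson counts. These held no variation between barcodes, so the run checks the computation only. Python 3.11.15, numpy 2.4.6, scipy 1.17.1, pandas 2.3.3 and matplotlib 3.10.9 were used.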

Additional observations from a re-analysis of the deposited data

Results flagged for a closer look

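The rule was also run on C3 and C4, which the comparisons do not use. In C3, 5 barcodes met it (0.0586%, 0.0190 to 0.137%) and in C4 1 did (0.0168%, 0.000425 to 0.0935%). None was endothelial-marked. All 6 carried 10 to 12 of the 12 leukocyte genes and 40 to 601 UMIs of Cd74, had no UMI of Emcn, Plvap, Egfl7 or Flt1, and entered through Cdh5 and Kdr alone.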

How the results depend on the processing

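The reference values here are those over all 52 barcodes: 302 and 202 genes at least 2-fold higher in C1 and C2, and an MHC class II ratio of C1 over C2 of 0.341. Settings on the endothelial-marked barcodes were added after seeing the data. The class II ratio stayed below 1 in every setting run, at 0.378 with an endothelial sum of at least 2, 0.0398 with at least 5, 0.458 without C1q UMIs, 0.0997 without Ptprc and 0.216 as a mean over barcodes. In the endothelial-marked barcodes it was 0.112, with 0.0959 without transcripts that count with ribosomal RNA, 0.0700 without the deepest barcode of C2, 0.0564 with free RNA subtracted, 0.141 as a mean over barcodes, 0.114 with at least 1000 UMIs (7 barcodes left in C2) and 0.0693 without the barcode of each library with the most class II UMIs. Genes higher in C1 and C2 numbered 171 and 47 with a sum of at least 5, 131 and 28 without Ptprc, 80 and 42 at a minimum of 100 UMIs per gene, and 1018 and 684 at 10 UMIs. Without C1q UMIs 123 were higher in C2. In the endothelial-marked barcodes they numbered 122 and 26, and in the order of settings just given 82 and 38, 93 and 39, 108 and 31, 140 and 40, 133 and 20, and 145 and 20.

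Several lists that were higher in C1 over all 52 barcodes turned below 1. The arterial ratio was 0.670 without Ptprc, 0.698 in the endothelial-marked barcodes, and there 0.600, 0.842, 0.647, 0.919, 0.727 and 0.650 in the same order. Without transcripts that count with ribosomal RNA, Notch was at 0.874, junction at 0.951, leukocyte adhesion at 0.978 and chemokines at 0.865. Without the deepest barcode of C2, the list that holds the rule's genes was at 0.806, capillary at 0.819, caveolae at 0.852 and chemokines at 0.680. With free RNA subtracted, Notch was at 0.951 and chemokines at 0.937. As a mean over barcodes, the list with the rule's genes was at 1.00, caveolae at 0.910, leukocyte adhesion at 0.999 and chemokines at 0.816. With at least 1000 UMIs, Notch was at 0.898. Without the barcodes with the most class II UMIs, Notch was at 0.920. Leukocyte and T or NK genes turned above 1 with at least 1000 UMIs, at 1.06 and 1.61. The cause was not tested. With 10 endothelial-marked barcodes in C2 at a median of 1092.5 UMIs, genes at low levels could not be compared. No paired analysis was possible because each library is single and tied to no group.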
